A study of Homo sapiens with 9 samples.

Results

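The keratin genes described here are KRT7, KRT8, KRT10, KRT14, KRT15, KRT17, KRT18, KRT19, KRT80 and KRT81. They are 10 of the 56505 genes in the count tables, matched by gene symbol, and were chosen with earlier results of these data known. Their transcripts were measured by RNA sequencing in MDA-MB-231-D3H2LN cells (also written MDA231-LN), a luciferase-marked line derived from MDA-MB-231 breast cancer cells of human origin. There were 3 groups of 3 libraries each. Wild-type cells express JAG1, a membrane-bound ligand of the Notch receptors. JAG1-KO clone 1 and clone 2 came from wild-type cells transfected with Cas9 protein and single-guide RNAs against separate places in a JAG1 exon, were grown from single cells by serial dilution, and are described as homozygous knockouts. All 3 groups grew in high-glucose DMEM with 10% FBS, with no other treatment named. Each clone is a single line, so the values describe these lines, and a library's replicate number is not stated to mark a separate culture. The p-values therefore measure the spread between libraries, which may be technical. In such bulk samples fewer cells of a kind and less RNA per cell cannot be told apart.

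Keratins are the intermediate filament proteins of epithelial cells. A filament is built from pairs of a type I and a type II keratin, so the cell needs both kinds, and which pair it makes marks its epithelial type. KRT8 (type II) with KRT18 (type I) is the pair of simple epithelia such as the luminal layer of the breast, joined there by KRT7 (type II) and KRT19 (type I). KRT14, KRT15 and KRT17 (type I) belong to basal cells of stratified and glandular epithelia, with KRT17 also known as a keratin of stressed and activated epidermis. KRT10 (type I) is a keratin of the differentiating suprabasal epidermis, KRT80 a type II keratin found in many epithelia, and KRT81 a type II hair keratin that is also expressed in breast cancer cells.

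The 4 type II genes and KRT18 lie on chromosome 12, and the other 5 type I genes on chromosome 17 (GRCh38, positions as in the count tables). KRT8 is listed at 52897187 to 52949954 on the minus strand and KRT18 at 52948871 to 52952901 on the plus strand, so their 5′ ends overlap and 525 exonic bases belong to both. Those bases make up 7.63% of the exon length counted for KRT8 and 16.3% of that for KRT18. KRT7 (52232520 to 52252186, plus strand) shares 282 exonic bases with the antisense transcript KRT7-AS, and KRT10 (40818117 to 40822595, minus strand) shares 56 with TMEM99 on the other strand. KRT80 (52168996 to 52192000, minus strand) and KRT81 (52285913 to 52291534, minus strand) shared no exonic base with a gene that had 10 counts in any library. KRT7 also shares 32 exonic bases with the pseudogene KRT87P, which had 4 to 38 counts per library. The other type I genes on chromosome 17 are on the minus strand, KRT15 at 41513743 to 41522529, KRT19 at 41523617 to 41528308, KRT14 at 41582279 to 41586921 and KRT17 at 41619437 to 41624842. Whether the counting used strand is not given in the sources used here, and reads from the shared bases cannot be told apart.

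Among the members, the sequences before a start site were at hand only for KRT8 and KRT10, so these 2 are shown. Each line gives the 250 bases before the RefSeq start site (GRCh38.p14), read 5′ to 3′ on the minus strand, at chr12:52926470-52926719 for KRT8 and chr17:40822615-40822864 for KRT10. Capitals mark a match to TATAAA.
KRT8: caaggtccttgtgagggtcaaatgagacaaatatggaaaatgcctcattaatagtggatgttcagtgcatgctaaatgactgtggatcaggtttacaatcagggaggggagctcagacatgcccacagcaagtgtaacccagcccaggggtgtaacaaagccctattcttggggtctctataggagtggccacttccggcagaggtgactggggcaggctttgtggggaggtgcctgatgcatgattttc
KRT10: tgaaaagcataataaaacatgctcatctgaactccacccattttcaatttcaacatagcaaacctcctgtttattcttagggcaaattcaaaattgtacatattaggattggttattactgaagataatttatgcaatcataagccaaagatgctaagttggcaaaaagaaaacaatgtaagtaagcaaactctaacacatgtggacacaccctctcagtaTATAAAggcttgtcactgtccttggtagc
The KRT10 window held a TATAAA 29 bases before the start and had 34.8% G and C, against 50.4% in the KRT8 window. TATAAA on either strand was present in 10.7% of 35116 RefSeq windows of this length. The windows of both genes held no match on either strand to GGGCGG (the SP1 box, in 42.6% of all windows), CACCTG (the E-box of SNAI and ZEB factors, 17.5%), TGANTCA (the AP-1 site, 6.57%) or TGGGAA (the core bound by the Notch partner RBPJ, 20.9%). No match says only that these letters were not in the window. The RefSeq start used for KRT8 lies 23485 bases inside the gene as listed, and that for KRT10 lies 19 bases from its listed 5′ end. Starts elsewhere in KRT8, upstream or downstream, are not covered by this window. Which KRT8 start these cells use was not tested, so the window may not be that of their main transcript.

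JAG1 was checked first. It had 5069, 3803 and 3592 counts in wild-type libraries 1 to 3, 2130, 1699 and 1657 in clone 1, and 1230, 1406 and 1190 in clone 2. Every knockout library was below every wild-type library, with log2 fold changes of −1.05 ± 0.18 (SE) in clone 1 and −1.55 ± 0.18 in clone 2 (adjusted p = 0.00312 and 0.00013, edgeR's quasi-likelihood test). Total counts ran from 16890890 to 22456164 per library. The cell line's markers VIM, CD44, AXL, CAV1 and EGFR were summed in CPM (counts scaled to library size by TMM). The sums were 3583 to 5280 in wild-type cells, 3657 to 4415 in clone 1 and 5295 to 6942 in clone 2. CDH1, the epithelial cadherin, had at most 19 counts in a library, PGR at most 9 and TP63 at most 7. Other epithelial markers were present, with 659 to 2274 counts of CLDN4 and 222 to 535 of EPCAM, and the list summed to 85.1 to 118 CPM in wild-type cells, 93.4 to 146 in clone 1 and 59.1 to 79.0 in clone 2. The basal or myoepithelial list, led by MYLK (257 to 861 counts), summed to 29.6 to 43.2, 16.7 to 18.6 and 27.3 to 45.2 CPM in the same order. Of the receptors listed with PGR, ERBB2 had 1453 to 2076 counts and ESR1 at most 25, and the luminal marker GATA3 had 147 to 369. The fibroblast list, with COL1A1 and LUM, summed to 24.5 to 56.1, 23.9 to 26.9 and 13.4 to 18.2 CPM, and LUM had 126 to 393 counts in wild-type and clone 1 libraries and 2 to 14 in clone 2. Blood markers summed to at most 0.523 CPM and endothelial markers to at most 5.51 in a library, with CD3E and HBB at 0 in all 9 libraries. Clone 2 library 3 stood apart in genes of stratified epithelium. A list of 24 such genes, chosen after the values were seen, summed to 428 counts (20.3 CPM) there and to 15 to 137 counts in the other 8 libraries. Of its 18 detected genes, 9 were highest in that library, KRT14 among them. The part of these marker genes in the keratin results was not tested, and the keratin differences between the clones are given without that library as well.

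In clone 1 the simple keratins KRT7, KRT8 and KRT18, and KRT80, fell to between 0.46 and 0.63 of the wild-type level, and KRT15, a basal keratin of low level, rose 2.03-fold. The other 4 tested members, KRT10, KRT17, KRT19 and KRT81, did not pass the test, and KRT14 had too few counts to be tested. Thus 5 of 9 tested members were called at an adjusted p under 0.05, against 5.51% of all 16921 genes tested. By direction, 4 were called lower and 1 higher, against 4.1% and 1.41% of all genes. The libraries of clone 1 and wild type did not overlap in 6 members, against 29.6% of all genes. The median log2 fold change of the 9 members was −0.70, and that of all genes −0.02.

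In clone 2 KRT7, KRT8, KRT18 and KRT80 did not pass the test against wild type. Among the 9 tested members 1 was called, KRT15, which rose 1.81-fold, against 5.96% of all genes. In all, 3.21% of genes were called higher and 2.75% lower. Wild-type and clone 2 libraries did not overlap in 4 members (KRT8, KRT15 and KRT18 higher, KRT17 lower in clone 2), against 25.9% of all genes. At an unadjusted p under 0.05 the count was 4 (the same 4 genes), and the share of all genes at that cut was not counted. The median log2 fold change was 0.10 over the members and 0.00 over all genes (0.0011). Without clone 2 library 3 the call of KRT15 was lost (0.92, adjusted p = 0.0991), and KRT7 (−0.21), KRT8 (0.40) and KRT18 (0.54) again did not pass (adjusted p = 0.641, 0.277 and 0.184). Both clones were compared with the same wild-type libraries, so their changes share an error. Replicate numbers went with a shared deviation in wild-type and clone 2 libraries, which the main fit leaves out. A fit with that number as a block called 5 members in clone 2, 4 higher (KRT8, KRT15, KRT18 and KRT81) and 1 lower (KRT17). That fit also called more genes over all genes tested than the main fit, with both counts given in the section on processing.

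Set directly against each other, the clones differed in 6 of 9 tested members, against 33.9% of all genes. KRT7, KRT8, KRT18, KRT80 and KRT81 were 1.68- to 2.63-fold higher in clone 2 than in clone 1 (5 higher, against 19.8% of genes), and KRT10 was lower (1, against 14.1%). The same 6 members had no overlap between libraries of the clones, as did 47.4% of all genes. The median log2 difference was 0.75 for the members and −0.01 for all genes. Without clone 2 library 3 the count was 6 as well, 5 higher and 1 lower. The range of calls over all genes with a library left out is given in the section on processing.

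**Figure D1:**
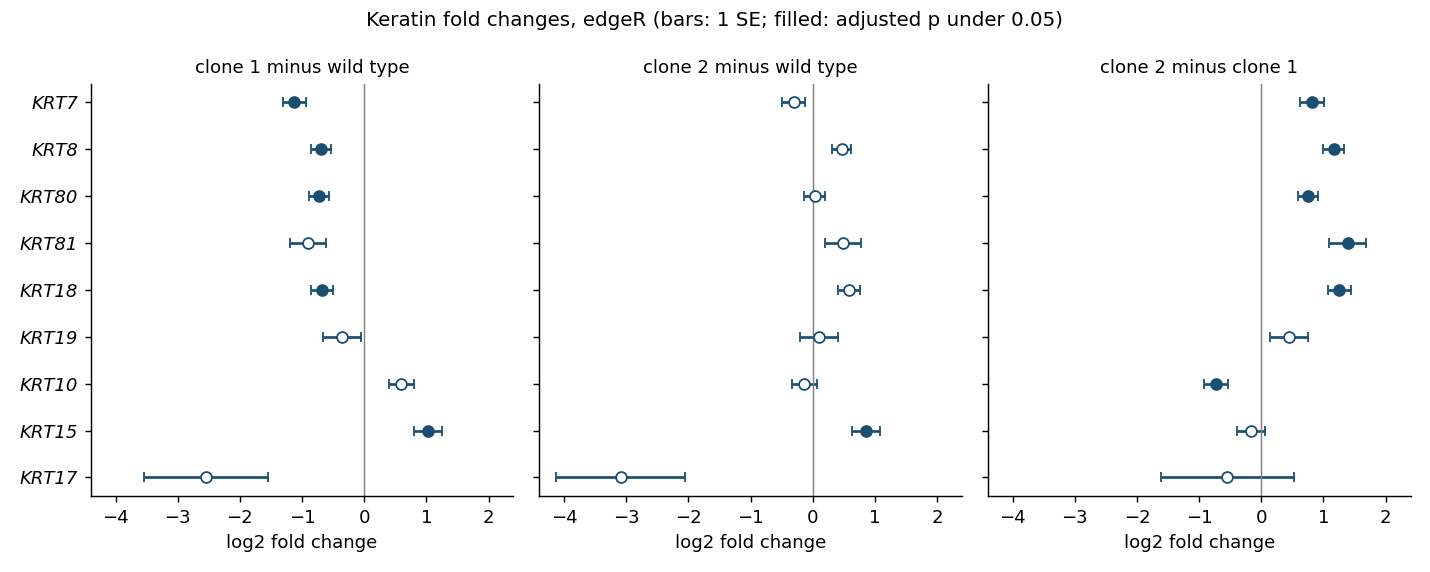
Log2 fold change (x axis) of the 9 tested keratin genes (rows) in clone 1 against wild type, clone 2 against wild type and clone 2 against clone 1, from edgeR. Points are estimates, bars 1 SE, and filled points have an adjusted p under 0.05: 5 genes in the left panel, 1 in the middle and 6 on the right.

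Of the type II keratins, KRT8 had the highest counts among the members in every library. It measured 367, 421 and 453 CPM in wild-type libraries 1 to 3, 244, 295 and 225 in clone 1, and 576, 521 and 614 in clone 2. The 3 groups did not overlap, with clone 1 below wild type and clone 2 above it. KRT8 fell in clone 1 (log2 fold change −0.70 ± 0.16 SE, adjusted p = 0.0209). In clone 2 the change was 0.46 ± 0.16 and did not pass (adjusted p = 0.0918), but did with the replicate number as a block (0.47, adjusted p = 0.0356) and in DESeq2 (0.45, adjusted p = 0.0343). Between the clones the log2 difference was 1.16 ± 0.16 (adjusted p = 0.000131), and 1.09 without clone 2 library 3 (adjusted p = 0.000571). The clone 1 call was lost without wild-type library 2 or 3 or clone 1 library 1 or 3 (adjusted p = 0.0624 to 0.126).

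KRT18, the type I partner of KRT8, moved with it. Its libraries held 208, 185 and 263 CPM in wild type, 160.5, 139.8 and 111 in clone 1, and 369.7, 271 and 343 in clone 2. Again no library of one group reached the range of another. KRT18 fell in clone 1, with a log2 fold change of −0.67 ± 0.18 (adjusted p = 0.0396). The clone 2 change of 0.58 ± 0.18 stayed above the threshold (adjusted p = 0.0641), and passed it with the block (0.58, adjusted p = 0.0122) and in DESeq2 (0.57, adjusted p = 0.029). Clone 2 exceeded clone 1 by 1.26 ± 0.18 (adjusted p = 0.000168), or 1.21 without clone 2 library 3 (adjusted p = 0.000575). Leaving out wild-type library 3 or any clone 1 library ended the clone 1 call (adjusted p = 0.0529 to 0.212). The ratio of KRT8 to KRT18 counts ran from 1.72 to 2.27 in wild type, 1.52 to 2.11 in clone 1 and 1.56 to 1.92 in clone 2. These ranges overlapped, so the balance of the pair varied as much within a group as between groups while its level differed.

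KRT7, the other type II keratin of simple epithelia, had the clearest decrease in clone 1. Wild-type libraries had 292, 249 and 185 CPM, clone 1 libraries 129, 113 and 91.8, and clone 2 libraries 237, 184 and 166. All clone 1 values were lower than all others, while clone 2 overlapped with wild type. The log2 fold change was −1.12 ± 0.19 in clone 1 (adjusted p = 0.00329) and −0.31 ± 0.19 in clone 2 (adjusted p = 0.335). Among the 5 members called in clone 1, KRT7 was the one that passed in each of the 9 fits that left out a library (adjusted p at most 0.0333). The clones differed by 0.81 ± 0.19 (adjusted p = 0.00421), and by 0.90 without clone 2 library 3. KRT7-AS, which overlaps KRT7, had 9 to 119 counts per library, against 1649 to 6011 for KRT7.

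KRT80 measured 134, 201 and 175 CPM in wild type, 96.9, 119.9 and 92.7 in clone 1, and 165, 186 and 170.2 in clone 2. Clone 1 again lay below both other groups, and the clone 2 values lay inside the wild-type range. KRT80 fell in clone 1 (−0.72 ± 0.16, adjusted p = 0.0188), with the call lost without wild-type library 2 or 3 or clone 1 library 1 or 3 (adjusted p = 0.0763 to 0.115). Its change in clone 2 was 0.03 ± 0.16 (adjusted p = 0.935), and the sign turned under 4 alternatives. Between the clones it differed by 0.75 ± 0.16 (adjusted p = 0.00264), with the same value without clone 2 library 3.

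KRT81, the hair keratin, showed the largest difference between the clones of the 9 tested members, with wide spread inside each group. It stood at 143, 116 and 81.3 CPM in wild type, 82.7, 62.1 and 37.1 in clone 1, and 212, 150.1 and 116 in clone 2. The clones did not overlap with each other, but each overlapped with wild type. The change was −0.90 ± 0.30 in clone 1 (adjusted p = 0.0982) and 0.49 ± 0.29 in clone 2 (adjusted p = 0.332, or 0.0108 with the block), and the clone 1 value passed in DESeq2 (−0.88, adjusted p = 0.0249) and with no filter on low counts (−0.91, adjusted p = 4.16e-05). The clones differed by 1.39 ± 0.30 (adjusted p = 0.00398), and by 1.56 without clone 2 library 3. KRT81 lies inside the span of KRT86 on the other strand with no shared exonic base, but their coding sequences are 90.1% identical, and KRT81 and KRT83 are 89.4% identical, so reads from these hair keratins may have been split or dropped. KRT86 had 115 to 464 counts per library.

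KRT19, the small type I keratin of simple epithelia, did not pass the test in any comparison. It had 133, 244 and 238 CPM in wild type, 109, 204 and 168 in clone 1, and 139.9, 208 and 309 in clone 2. All groups overlapped, and library 1 was the lowest of each. The log2 values were −0.35 ± 0.31 in clone 1 (adjusted p = 0.536), 0.10 ± 0.31 in clone 2 (adjusted p = 0.885) and 0.45 ± 0.31 between the clones (adjusted p = 0.282). The clone 2 value turned negative without clone 2 library 3 (−0.24) or without wild-type library 1 (−0.14).

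**Figure D2:**
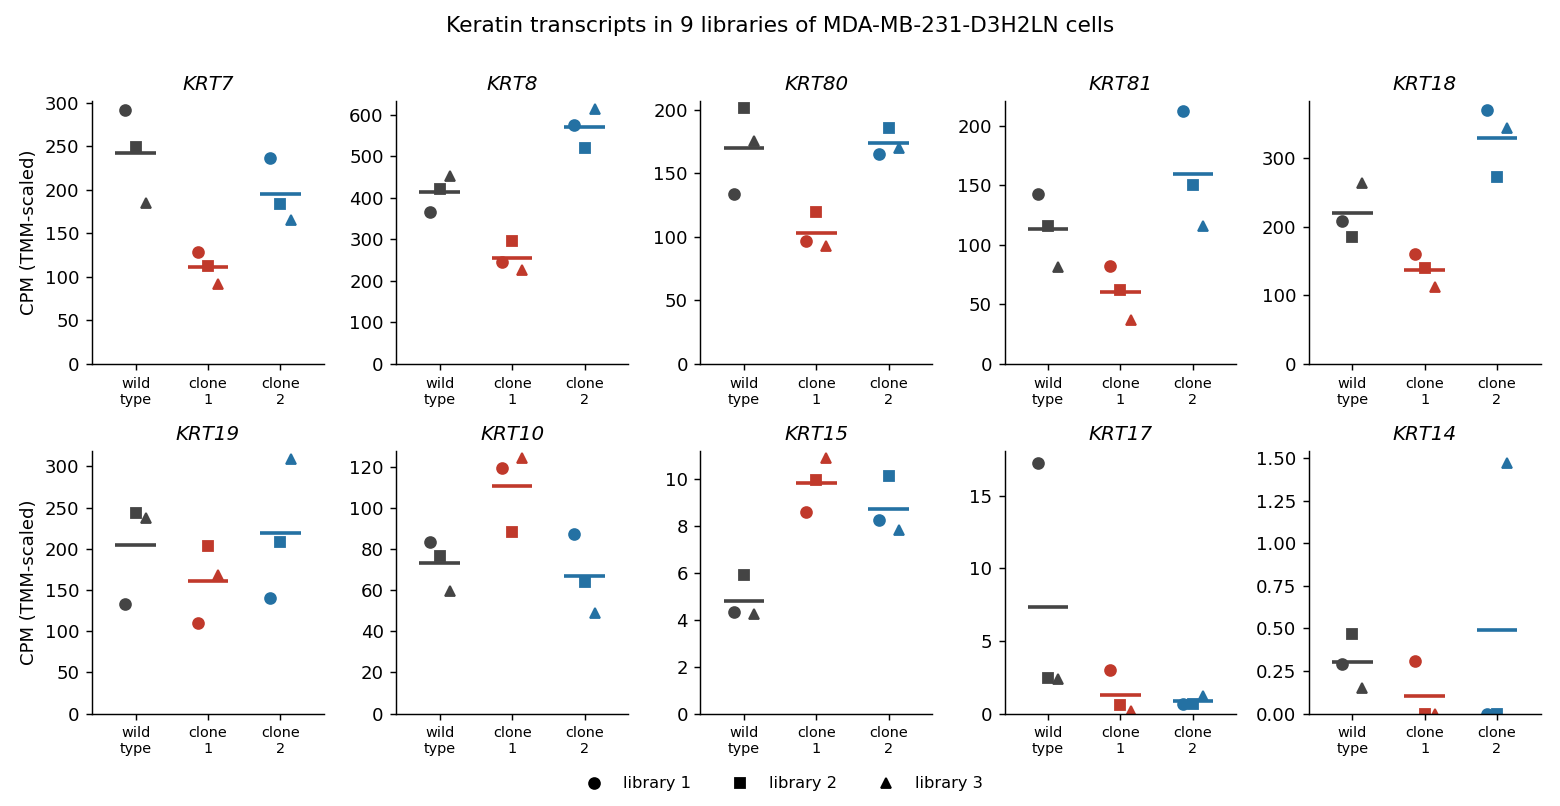
CPM, TMM-scaled (y axis, linear from 0, separate scale for each gene) of the 10 keratin genes in wild type, clone 1 and clone 2. Points are libraries, with the shape giving the library number, and lines are group means; clone 1 is below the other groups for KRT7, KRT8, KRT80 and KRT18, while KRT14 rests on 1 library of clone 2.

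KRT10 differed between the clones in the opposite direction to KRT7, KRT8 and KRT18. Its libraries held 83.3, 76.6 and 59.9 CPM in wild type, 119.6, 88.3 and 124 in clone 1, and 87.3, 64.0 and 49.1 in clone 2. Clone 1 lay above both other groups, and clone 2 overlapped with wild type. The change in clone 1, 0.60 ± 0.20, did not pass (adjusted p = 0.0912). It passed in 5 of 16 alternatives, 2 of which left out a library. Among the 5 was the fit of clone 1 and wild type alone, where the change was 0.62 (adjusted p = 0.0298). In clone 2 it was −0.13 ± 0.20 (adjusted p = 0.725), and 0.03 without clone 2 library 3. Clone 2 was lower than clone 1 by a log2 difference of −0.73 ± 0.20 (adjusted p = 0.0109), a call lost without clone 1 library 3 (−0.63, adjusted p = 0.0544) and held without clone 2 library 3 (−0.57, adjusted p = 0.0466). TMEM99, which shares 56 bases with KRT10, had 933 to 1499 counts per library.

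KRT15 was the member called in the same direction in both clones. It measured 4.32, 5.88 and 4.22 CPM in wild type, 8.60, 9.94 and 10.9 in clone 1, and 8.23, 10.1 and 7.83 in clone 2, from 84 to 209 counts per library. Every knockout library was above every wild-type library, and the clones overlapped with each other. KRT15 rose by 1.02 ± 0.23 in clone 1 (adjusted p = 0.0179) and 0.86 ± 0.23 in clone 2 (adjusted p = 0.0383), with a difference of −0.17 ± 0.22 between the clones (adjusted p = 0.592). In clone 1 the call was lost without wild-type library 3 or clone 1 library 2 or 3 (adjusted p = 0.0641 to 0.103). In clone 2 it held in 2 of 9 fits that left out a library, those without clone 1 library 1 or clone 2 library 1, and was lost in the other 7 (adjusted p = 0.0554 to 0.149). A fit of clone 2 and wild type alone also lost it (0.85, adjusted p = 0.0894). The shared wild-type libraries enter both values.

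KRT17, the basal and stress keratin, rested on a single high library. It had 355, 57 and 47 counts in wild type, 58, 12 and 3 in clone 1, and 11, 13 and 26 in clone 2, or 17.2, 2.41 and 2.36 CPM, 3.004, 0.571 and 0.167 CPM, and 0.680, 0.629 and 1.23 CPM. Wild-type library 1 was the outlying value, clone 1 overlapped with wild type, and clone 2 lay below it. The log2 fold changes were −2.55 ± 0.99 in clone 1 (adjusted p = 0.172) and −3.09 ± 1.03 in clone 2 (adjusted p = 0.109), and without wild-type library 1 they were −0.94 and −1.48 (adjusted p = 0.507 and 0.356). Without clone 1 library 1 the clone 1 value was −4.26 (adjusted p = 0.0467), and without clone 2 library 3 the clone 2 value was −3.49 (adjusted p = 0.340). With the replicate block the clone 2 value was −2.34 (adjusted p = 0.0232). The coding sequence of KRT17 is 78.4% identical to that of KRT14, and its 8 listed pseudogenes together had at most 7 counts in a library.

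KRT14, the basal partner of KRT5, was close to the limit of detection. It had 6, 11 and 3 counts in wild type, 6, 0 and 0 in clone 1, and 0, 0 and 31 in clone 2. The 31 counts fell in clone 2 library 3, the library with high stratified epithelium genes, where KRT5 had 55 counts against at most 22 elsewhere. Without that library clone 2 had no KRT14 count, where a count of 0 allows up to 3 in a library, counting error only. KRT14 did not pass the filter on low counts and was not tested, and its coding sequence is 85.2% identical to that of KRT16.

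Compared per length, the order of the members depended on the length used. With the length of a GENCODE coding transcript, wild-type levels in CPM per kilobase were 245 ± 25.7 (SD, n = 3) for KRT8, 147 ± 44.7 for KRT19, 140.2 ± 25.6 for KRT18 and 138 ± 30.6 for KRT7. The last 3 did not differ beyond their spread. Next came KRT81 (58.8 ± 16.04), KRT80 (44.1 ± 8.81) and KRT10 (34.5 ± 5.68), neighbours within their spread, then KRT17 (4.45 ± 5.20), KRT15 (0.918 ± 0.178) and KRT14 (0.182 ± 0.0948). The transcripts used for KRT15 and KRT80 had 5237 and 3859 bases, for coding sequences of 1368 and 1356. A shorter transcript would give these genes higher values. With the merged exon length in the tables, which is 6881 bases for KRT8 against 1687 for the transcript, KRT8 had 60.1 ± 6.31 and came after KRT19 (87.7 ± 26.6) and KRT18 (68.1 ± 12.4). On the transcript scale KRT8 led in all 3 groups. KRT10 had rank 7 in wild type and clone 2 on that scale and rank 5 in clone 1, at 52.1 ± 9.23 there. With the merged length KRT10 had rank 2 in clone 1, at 51.6 ± 9.14, above KRT18, KRT8 and KRT7 (42.6, 37.0 and 27.2), and in clone 2 KRT81 (82.6) was above KRT7 (47.8).

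The members together made up 1383 to 1502 CPM in wild type, 861 to 1032 in clone 1 and 1595 to 1796 in clone 2, 3 ranges that did not overlap. On the transcript scale the 4 type II members summed to 486 ± 21.8 CPM per kilobase in wild-type cells, 273 ± 38.6 in clone 1 and 577 ± 46.5 in clone 2. The 6 type I members summed to 328 ± 45.4, 258 ± 19.8 and 402 ± 59.3. The ratio of type II to type I was 1.51 ± 0.257 in wild-type cells, 1.06 ± 0.142 in clone 1 and 1.46 ± 0.232 in clone 2. Clone 1 libraries had ratios of 0.906 to 1.19, below the 1.25 to 1.76 of wild type and the 1.20 to 1.65 of clone 2.

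**Figure D3:**
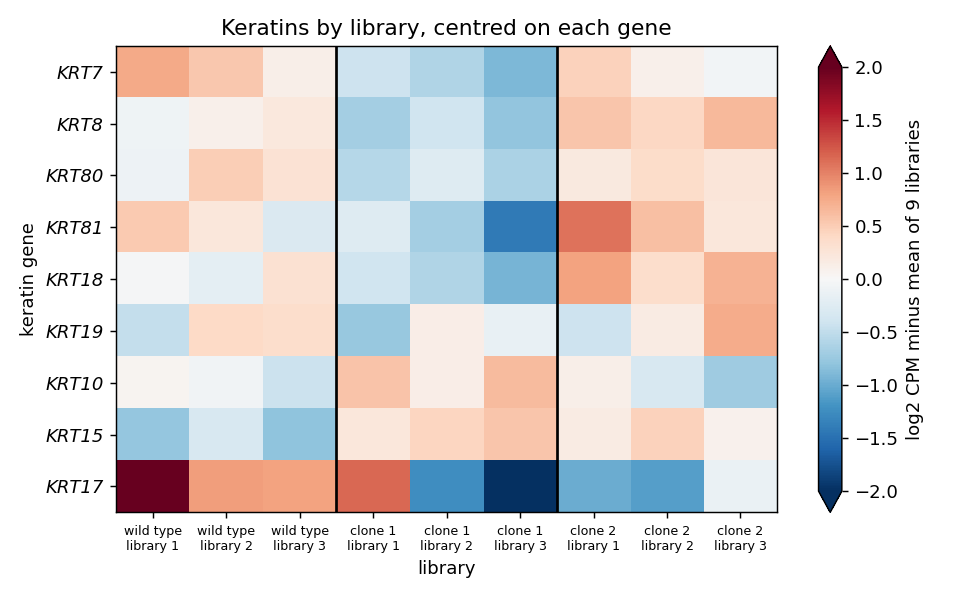
Log2 CPM of the 9 tested keratin genes (rows) in each of the 9 libraries (columns), minus the gene's mean over the libraries. Blue is below and red above that mean, with the scale ending at 2 in either direction; KRT7, KRT8, KRT80, KRT81 and KRT18 are blue in all 3 clone 1 libraries, and KRT17 is highest in wild-type library 1.

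Across the 9 libraries, which share groups and 3 lines, log2 CPM of KRT8 and KRT18 correlated at r = 0.946, KRT8 and KRT80 at 0.885, KRT7 and KRT81 at 0.849, and KRT8 and KRT10 at −0.847. These values describe the libraries and carry no test. KRT7 and KRT81 also had the same order of libraries inside each group, with library 1 highest and library 3 lowest. That same order in 3 groups was met by 2 of the 9 tested members and by 5.64% of all tested genes, 955 in number. By the likeness of log2 CPM over the 9 libraries among 10848 tested genes at 5 CPM or more in a group, the protein-coding genes closest to KRT18 were FKBP4 (r = 0.996), CAPZB (0.995), RNPS1 (0.993), SFXN1 (0.992) and PRPF19 (0.992). For KRT81 they were ELP2 (0.979), PRAF2 (0.970), TIMM17B (0.948), MRPS28 (0.944) and VPS72 (0.941). These points share groups and depth, and r says how alike the pattern over the libraries was, whatever the size of a change. Between the clones the log2 difference was 1.17 in FKBP4 and 1.26 in KRT18, but 0.33 in ELP2 and 1.39 in KRT81.

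Outside the 10 members, the tables list 45 other keratin genes, of which 23 were at 0 in all libraries and 4 reached a mean of 1 CPM in a group. KRT86, a hair keratin, had 15.9 ± 4.403 CPM (SD, n = 3) in wild-type cells, 11.4 ± 4.37 in clone 1 and 19.3 ± 5.52 in clone 2, the same order of means as KRT81. KRT79 had 2.38, 4.83 and 2.11 CPM, KRT34 had 1.86, 1.49 and 1.72, and KRT16, an activation keratin, had 1.07, 0.576 and 0.988. In edgeR's test 0 of these 4 were called in any comparison. The smallest adjusted p was that of KRT86 between the clones (log2 difference 0.76 ± 0.30, adjusted p = 0.0613). That difference passed in 4 of 16 alternatives. Processed pseudogenes were many and little used. The 50 listed for KRT8 had 1.16 to 3.37% of the counts of KRT8, mostly in KRT8P12 and KRT8P3, and the 67 listed for KRT18 had 0.285 to 1.70% of those of KRT18. Adding pseudogene counts to their parent gene left the number of members called at 5, 1 and 6.

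Other intermediate filaments were read from a list of 13 genes, 7 of them tested. In clone 1, 2 of 7 fell, against 4.1% of all genes: LMNA (−0.79 ± 0.16, adjusted p = 0.0129) and LMNB1 (−0.69 ± 0.16, adjusted p = 0.0211), lamins of the nuclear envelope. In clone 2, 3 rose (3.21% of all genes did), LMNB1 (0.73 ± 0.16, adjusted p = 0.0157), LMNB2 (0.63 ± 0.17, adjusted p = 0.0406) and vimentin, the filament of mesenchymal cells (VIM, 0.69 ± 0.20, adjusted p = 0.0491). GFAP, the filament of astrocytes, fell there (−1.36 ± 0.27, adjusted p = 0.0102), as did 2.75% of genes. VIM stood at 1218 ± 276 CPM in wild-type cells, 845 ± 78.4 in clone 1 and 1966 ± 292 in clone 2, and the clone 2 call was lost under 8 of 16 alternatives. Between the clones 4 of 7 were higher in clone 2, VIM by 1.22 (adjusted p = 0.000394), LMNA by 1.17, LMNB1 by 1.41 and LMNB2 by 1.21, and GFAP was lower, against 19.8% and 14.1% of all genes. The median of the list was −0.53 in clone 1, 0.38 in clone 2 and 1.17 between the clones.

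Of 19 genes of desmosomes and hemidesmosomes, the junctions that hold keratin filaments, 16 were tested. ITGB4, the integrin chain that ties keratins to the hemidesmosome, fell in both clones (−0.87 ± 0.17 and −1.20 ± 0.17, adjusted p = 0.00745 and 0.000706), with 4618 to 6326 counts in wild type, 2079 to 3483 in clone 1 and 1972 to 2298 in clone 2. These calls held in all 16 alternatives. It was the 1 gene of the list called in clone 1, where 4.1% of all genes fell. In clone 2, PPL, a plakin that links filaments to the cornified envelope, also fell (−2.13 ± 0.55, adjusted p = 0.041), and COL17A1, a hemidesmosome collagen, rose (1.28 ± 0.30, adjusted p = 0.0234), so that 2 of 16 fell and 1 rose, against 2.75% and 3.21% of all genes. PPL had 417 counts in wild-type library 2 and 78 and 138 in the others, and without that library its change was −1.32 (adjusted p = 0.173). Between the clones, in genes named after their values were seen, 4 were higher in clone 2, DSP (1.17, adjusted p = 0.000887), JUP (0.88, adjusted p = 0.0329), PKP3 (0.60, adjusted p = 0.0308) and PKP4 (0.75, adjusted p = 0.0009), which join filaments to desmosomes, and 2 lower, the plakins EVPL (−1.003, adjusted p = 0.00074) and PLEC (−0.57, adjusted p = 0.0337). These 4 and 2 of 16 compare with 19.8% and 14.1% of all genes, shares near those of the list. The calls of DSP, PKP4 and EVPL held in all 16 alternatives. Those of JUP, PKP3 and PLEC were lost in 7, 6 and 3 of them, without clone 2 library 3 among others (adjusted p = 0.173, 0.126 and 0.0907). The list's medians were −0.12, 0.08 and 0.17.

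Among 11 genes of keratin binding, chaperoning and turnover, 10 were tested, and 3 fell in clone 1, against 4.1% of all genes. They were FAM83H, which recruits casein kinase to keratin filaments (−1.48 ± 0.39, adjusted p = 0.039), SFN, a 14-3-3 protein of epithelia (−0.60 ± 0.15, adjusted p = 0.0315), and HSPB1, a small heat shock protein (−0.56 ± 0.15, adjusted p = 0.0379). In clone 2 the smallest adjusted p was that of TCHP, a keratin-binding protein named after its value was seen (0.48 ± 0.15, adjusted p = 0.0676). Between the clones 7 were higher in clone 2, SFN (0.84) and HSPB1 (0.70) among them, against 19.8% of all genes. PNN, a desmosome-associated nuclear protein named after its value was seen, was lower (−0.55, adjusted p = 0.033), against 14.1%. Without clone 2 library 3 the calls of SFN and HSPB1 held, and those of FAM83H, TCHP and, named after their values were seen, CSNK1A1, STUB1 and PRKCE were lost (adjusted p = 0.0561 to 0.157), as was that of PNN (−0.45, adjusted p = 0.125). The PNN call was also lost without clone 1 library 1 or 3 (adjusted p = 0.166 and 0.0648). The medians were −0.25, 0.13 and 0.48.

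Of 20 regulators of epithelial and keratin genes, most of them transcription factors, 14 were tested. In clone 1, TFAP2C (−0.59 ± 0.15, adjusted p = 0.0361), ZEB2 (−0.94 ± 0.21, adjusted p = 0.0178), SNAI2 (−0.85 ± 0.22, adjusted p = 0.0332) and GATA3 (−0.66 ± 0.17, adjusted p = 0.0386) fell, 4 of 14 against 4.1% of all genes. ZEB2 and SNAI2 are repressors of epithelial genes, GATA3 a luminal factor of the breast. EHF, an ETS factor of epithelia, rose in clone 1 (0.80 ± 0.16, adjusted p = 0.0102) and fell in clone 2 (−0.63 ± 0.16, adjusted p = 0.0357). It was the 1 factor called in clone 2, where 2.75% of genes fell, and the 1 called higher in clone 1, where 1.41% of genes rose. Between the clones 5 factors were higher in clone 2 (TFAP2C, ZEB2 and GATA3, and, named after their values were seen, KLF5 and SNAI1) and EHF was lower (−1.43, adjusted p = 3.07e-05), the direction of KRT10, against 19.8% and 14.1% of all genes. The calls of KLF5 and SNAI1 were lost without clone 1 library 3 or clone 2 library 3, and that of TFAP2C without the first of these (adjusted p = 0.0519 to 0.0871). Medians were −0.34, 0.02 and 0.19. Of the clone 1 calls in these 4 lists, that of ITGB4 held in all 9 fits that left out a library. The other 10 were lost without clone 1 library 3 (adjusted p = 0.0506 to 0.189) and without at least 1 other library, and leaving out clone 1 library 3 also took the calls over all genes from 933 to 200. Of the clone 2 calls, that of ITGB4 held in the same way, that of GFAP was lost only without wild-type library 2 (adjusted p = 0.051), and the other 6 were lost without clone 2 library 3 (adjusted p = 0.0731 to 0.193) among others, where the calls over all genes numbered 237.

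**Figure D4:**
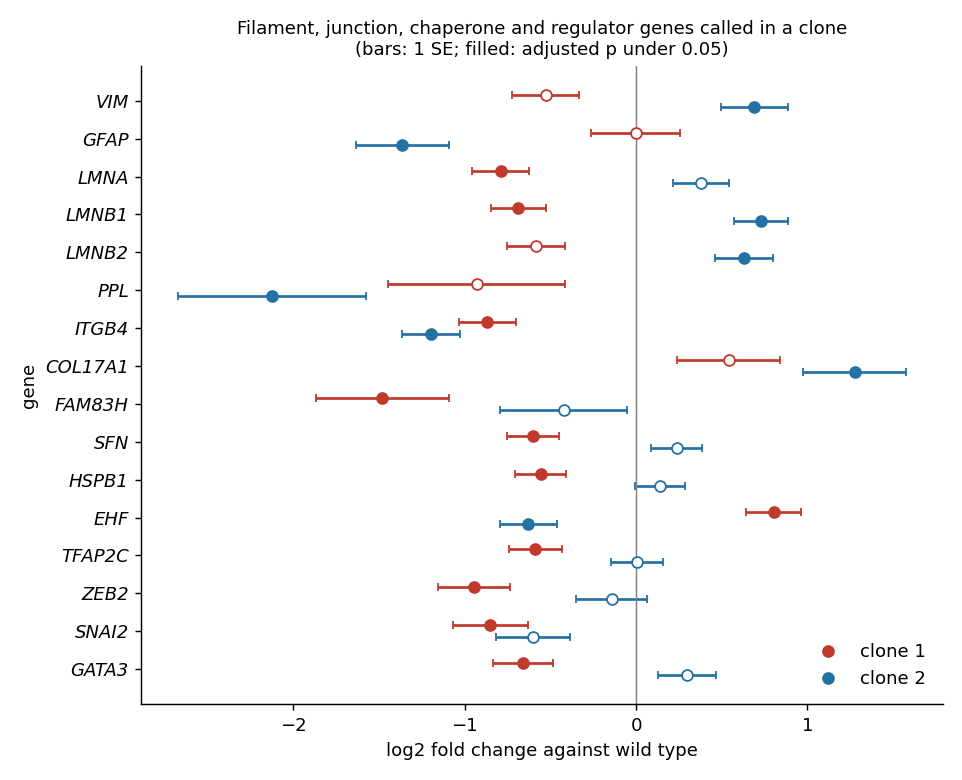
Log2 fold change against wild type (x axis) in clone 1 (red) and clone 2 (blue) of the 16 filament, junction, chaperone and regulator genes called in either clone (rows), from edgeR. Bars are 1 SE and filled points have an adjusted p under 0.05; ITGB4 is filled on the left for both clones, and LMNB1 and EHF are filled on opposite sides.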

How the data were processed

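RNA was measured in 9 libraries of MDA-MB-231-D3H2LN cells, grouped by their titles. Raw gene counts, unnormalised, were deposited in 2 tables, each with the wild-type libraries and 1 clone; the wild-type columns were identical (3 of 3) and used once. The tables also hold gene positions and merged exon lengths, per the file headers. STAR, Subread, featureCounts, DESeq2 and GRCh38 are named in the submitters' processing notes; no version, annotation release or use of strand is given in the sources used here.

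The members and gene lists were chosen with earlier results of these data known, and the lists come from general knowledge. Named genes were the 10 members, JAG1, other keratins at 1 CPM or more, list genes called in either clone, the 5 genes most like KRT18 and KRT81, and pseudogenes or overlapping genes with 10 counts.

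All genes were fitted with edgeR 4.0.16 (R 4.3.3): TMM, filterByExpr at its minimum count of 10, leaving 16921 genes, then the quasi-likelihood fit with robust dispersions, 3 groups and 6 residual degrees of freedom. Tests were two-sided, with p-values adjusted over all tested genes by Benjamini-Hochberg and called under 0.05. The biological coefficient of variation was 20.3%. With 16890890 to 22456164 counts per library, counting error is small beside this for all members but KRT14, KRT15 and KRT17. The fit was tested on simulated data. Gene symbols were matched to GENCODE 29 (66.07%; all 10 members) for transcript lengths, GC content and coding sequences, which were aligned end to end with Biopython 1.88. RefSeq windows before the start were matched for 2 of 10 members.

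Alternatives were RLE size factors, no filter, DESeq2 1.42.0, the 6 libraries compared alone, the replicate number as a block, a GC and length correction, each library left out, and, chosen after seeing the data, pseudogene counts added to the parent. The replicate numbers come from the titles, which do not say what they mark. Deviations from the group means correlated at 0.223, 0.269 and 0.246 between same-numbered wild-type and clone 2 libraries, which was read as a pairing there. The main fit left the replicate number out. The block entered only as an alternative, with its clone 2 calls given beside the main ones. The values were 0.245, 0.082 and −0.097 for clone 1 and wild type, and 0.219, −0.021 and 0.012 for the clones.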

Additional observations from a re-analysis of the deposited data

Results flagged for a closer look

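The keratins below changed differently in the 2 clones, by the test of clone 2 against clone 1, which is also the test of the difference between their changes from the shared wild-type libraries (edgeR's quasi-likelihood test, 3 libraries per group). The log2 difference, clone 2 minus clone 1, was 1.39 for KRT81, 1.26 for KRT18, 1.16 for KRT8, 0.81 for KRT7 and 0.75 for KRT80, and −0.73 for KRT10. All 3 clone 2 libraries were above all 3 clone 1 libraries in the first 5 genes and below them in KRT10. The adjusted p-values ran from 0.000131 to 0.0109. For KRT8 and KRT18 the clones lay on opposite sides of wild type with no overlap, while for KRT7 and KRT80 clone 2 overlapped with wild type. As 33.9% of all tested genes differed between the clones at this threshold, a call in this comparison was common.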

How the results depend on the processing

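Between the clones, the calls of KRT7, KRT8, KRT18, KRT80 and KRT81 held in all 16 alternatives, and that of KRT10 in all but the one without clone 1 replicate 3; 5 to 6 members were called with a library left out. Against wild type the calls depended more on the setting, and the cause was not tested. With a library left out, 1 to 6 members were called in clone 1 (5 with all libraries) and 0 to 2 in clone 2 (1 with all libraries). The lowest count of 1 in clone 1 came without wild-type replicate 3 or clone 1 replicate 3. The replicate block gave 8 members in clone 1, 5 in clone 2 and 7 between the clones. Its calls over all genes are given below for clone 1 and clone 2, but not between the clones. The block added KRT10, KRT17 and KRT81 in clone 1 and KRT19 between the clones. In both comparisons pairing by number is unclear. Deviations of libraries numbered 1 correlated at 0.245 and 0.219, and those of the other same-numbered libraries at −0.097 to 0.082. In clone 2 the block changed no member call beyond those given. Without a filter 2 members were called in clone 2, and with DESeq2 3. Over all genes, clone 1 calls numbered 933, and 1512 without a filter, 1479 with DESeq2, 2322 with the replicate block and 200 to 1301 with a library left out. Clone 2 calls numbered 1008, and 1663, 1818, 2699 and 237 to 1584 in the same order, and 416 with the 6 libraries alone. Calls between the clones numbered 5733, and 3639 to 5782 with a library left out.

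Signs turned only for keratins that were not called. In clone 2 these were KRT80 (−0.0062 without a filter, −0.0373 with the GC and length correction, −0.12 to 0.15 with a library left out), KRT19 (−0.24 to 0.36), KRT10 (−0.36 to 0.0335), KRT79 (−1.13 to 0.29), KRT34 (−0.43 to 0.10) and KRT16 (−0.25 to 0.02), each with a library left out. Between the clones they were KRT34 (−0.11 to 0.73) and KRT17, which was −0.55, 0.14 with the replicate block and −1.04 to 1.17 with a library left out. Depth limits KRT14, KRT15 and KRT17, and counting across near-identical keratins limits KRT81.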
